A study of Mus musculus with 24 samples.

Results

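The CCL chemokines described here are 10 mouse genes, Ccl2, Ccl3, Ccl4, Ccl5, Ccl6, Ccl7, Ccl9, Ccl20, Ccl24 and Ccl25, taken by gene symbol from the deposited tables of liver RNA sequencing. They are 10 of 49315 genes in the count table, each symbol matched a single row, and all 10 passed the filter on low counts, which kept 17216 genes. The study placed AKT and YAP1 in the genome of liver cells with a transposon, which gives rise to cholangiocarcinoma, a cancer of bile duct type. It profiled 4 groups of 6 libraries. Wild-type controls and Mdr2-/- controls were livers without tumour that had received an empty transduction, and wild-type and Mdr2-/- tumour-bearing livers had received AKT/YAP1. Mdr2-/- mice lack Abcb4 (Mdr2), the canalicular phospholipid carrier, in tumour and control livers alike. Tumour-bearing livers are called tumour livers here. The labels give no age, sex, strain, time after transduction, promoter or species of the delivered genes. Nor do they state that libraries came from different animals, and p-values therefore reflect only how far these libraries spread, which may be technical. Each sample is liver tissue of mixed cells, so that fewer cells of a type and less RNA per cell cannot be told apart.

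CC chemokines are small secreted proteins with adjacent cysteines near their amino terminus that guide leukocytes through G protein-coupled receptors named CCR. Ccl2 and Ccl7 bind Ccr2 and draw monocytes out of blood. Ccl3, Ccl4 and Ccl5 draw macrophages and effector T cells, and Ccl3 and Ccl5 bind Ccr1. Ccl6 and Ccl9, rodent chemokines made by macrophages, act through Ccr1. Ccl20 binds Ccr6 on dendritic cells and T helper 17 cells, Ccl24 (eotaxin-2) binds Ccr3 on eosinophils, and Ccl25 binds Ccr9 on gut-homing T cells. Several of these genes are textbook targets of the transcription factor NF-kB in injured liver, where macrophages, bile duct cells and hepatocytes can be their source.

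Of the 10 genes, 7 lie on chromosome 11, and Ccl20, Ccl24 and Ccl25 lie on chromosomes 1, 5 and 8 (RefSeq, GRCm38.p6). Gene order and promoters were read on that build, although the counts were made on mm39. Promoter sequence from RefSeq (GRCm38.p6) was matched for 5 of the 10: Ccl3, Ccl6, Ccl9, Ccl20 and Ccl25. The 250 bases before the annotated start are shown for Ccl20, which was among the 3 members with the highest folds in the edgeR model, and for Ccl6 and Ccl9, the neighbouring pair that gave most of the chemokine RNA. The 3 windows are chr1:83116516-83116765 on the plus strand, and chr11:83593088-83593337 and chr11:83578637-83578886 on the minus strand. Capitals mark matches on either strand to GGGNNNNNCC (NF-kB), TGANTCA (AP-1) or GGAATG (TEAD, the DNA partner of YAP1).
Ccl20: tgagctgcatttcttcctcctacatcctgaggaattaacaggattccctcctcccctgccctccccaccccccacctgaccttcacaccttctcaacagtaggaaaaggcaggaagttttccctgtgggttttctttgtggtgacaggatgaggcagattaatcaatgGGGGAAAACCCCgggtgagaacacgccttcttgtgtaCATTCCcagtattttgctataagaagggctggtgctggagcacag
Ccl6: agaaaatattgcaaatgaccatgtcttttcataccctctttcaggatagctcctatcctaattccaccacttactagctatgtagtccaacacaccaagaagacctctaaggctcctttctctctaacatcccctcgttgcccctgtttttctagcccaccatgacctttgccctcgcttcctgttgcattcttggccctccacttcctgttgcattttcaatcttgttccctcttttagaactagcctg
Ccl9: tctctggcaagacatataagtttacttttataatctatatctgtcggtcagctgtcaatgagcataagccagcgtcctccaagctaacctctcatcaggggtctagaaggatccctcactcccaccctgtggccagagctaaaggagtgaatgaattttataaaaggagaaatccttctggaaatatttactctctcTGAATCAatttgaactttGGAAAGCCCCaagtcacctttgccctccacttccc
The Ccl20 window held the run GGGGAAAACCCC, beginning 82 bases before the start, in which 4 overlapping NF-kB matches fall. Its CATTCC, the TEAD motif on the other strand, begins 45 bases before the start. The Ccl9 window held an AP-1 match (TGAATCA, 53 bases before the start) and an NF-kB match (GGAAAGCCCC, 35 bases before it). Windows of Ccl6, Ccl3 and both starts of Ccl25 held none of these letters. Among all 32851 promoter windows of 250 bases, 45.8% held the NF-kB letters, 6.75% the AP-1 letters and 12.6% the TEAD letters, so the matches are descriptions of sequence and not sites.

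Reads were assigned to these genes with little overlap in sequence. Of 50-base stretches of their GENCODE M21 transcripts, none of the 8 members other than Ccl9 and Ccl25 shared any with another gene, on either strand. Ccl9 shared 2.00% of its stretches with 463 other genes and Ccl25 shared 0.452% with Elavl1 alone. In the RefSeq table the models of Ccl3 and Ccl4 overlap, Ccl5 overlaps Gm32650, Ccl6 overlaps E230016K23Rik and Ccl25 overlaps LOC108167518. The sources used here do not say that counting used strand, so reads in these overlaps could belong to either gene.

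Total counts were 20976459 to 30288385 per library, and 1 CPM (the count scaled to library size and TMM factor) rests on 16.4 to 34.2 counts. Abcb4, the gene that the genotype Mdr2-/- names, was at 165 CPM or more in every wild-type library. It was at 21.7 to 59.3 CPM in the Mdr2-/- libraries, so its reads were fewer there but not absent. Markers of hepatocytes, the main liver cell (6 genes), summed to 88934 to 116880 CPM among wild-type controls, 46522 to 81408 CPM among wild-type tumour livers, 62910 to 76141 CPM among Mdr2-/- controls and 24406 to 45149 CPM among Mdr2-/- tumour livers. The sums were lower with tumour in each genotype and in Mdr2-/- than in wild-type controls, without overlap. Alb gave most of them, with medians of 79560.2, 44789.1, 61738.5 and 29385.6 CPM in the same order of groups. Of the 6 markers, 3 were called lower by edgeR in each of these comparisons, and 1 had a positive log2 value in each. Over all genes 11.5% were called lower with tumour in wild type, 17.0% with tumour in Mdr2-/- mice and 24.3% between controls. The part of hepatocytes in the chemokine differences was not tested. Fits were also made without wild-type tumour replicate 6 and Mdr2-/- tumour replicate 1, which were known from earlier work on these data to stand apart over all genes. Sample titles carry a number of unstated meaning. It was below 2000 in 5 of 6 wild-type controls, 4 of 6 Mdr2-/- controls and 3 of 6 Mdr2-/- tumour livers, and 2000 or above in all 6 wild-type tumour livers, and some values within a range of this number are given below.

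Measured per unit of transcript length, Ccl9 was the most abundant member in every group. Its TPM (a length-corrected level within a library, as the authors deposited it) had medians of 87.3 for wild-type controls, 179.5 for wild-type tumour livers, 147 for Mdr2-/- controls and 175 for Mdr2-/- tumour livers. No library of any group had another member above its group's lowest Ccl9 value. Within single libraries Ccl9 gave 54.0 to 88.1% of the TPM summed over the 10 genes. Ccl6 came second, with medians of 12.4, 21.3, 28.1 and 28.3 TPM in the same order of groups.

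Below these, the order depended on the group. In wild-type controls Ccl6 lay clear of all members below it. There the third place was held by Ccl24, at a median of 2.15 TPM, and its range overlapped that of Ccl25 (1.27 TPM), which overlapped Ccl5 (1.203 TPM), and so on down to Ccl7 (0.139 TPM). In the other 3 groups the third place was held by Ccl2, whose range overlapped that of Ccl6, at medians of 7.86 TPM in wild-type tumour livers, 19.7 TPM in Mdr2-/- controls and 20.2 TPM in Mdr2-/- tumour livers. The median share of Ccl2 in the members' summed TPM was 0.869% for wild-type controls, 4.86% for wild-type tumour livers, 9.04% for Mdr2-/- controls and 7.71% for Mdr2-/- tumour livers. Below Ccl2, neighbours in the order overlapped in their ranges, except that Ccl2 lay clear of Ccl5 in both Mdr2-/- groups and Ccl20 lay clear of Ccl4 in Mdr2-/- tumour livers.

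**Figure D1:**
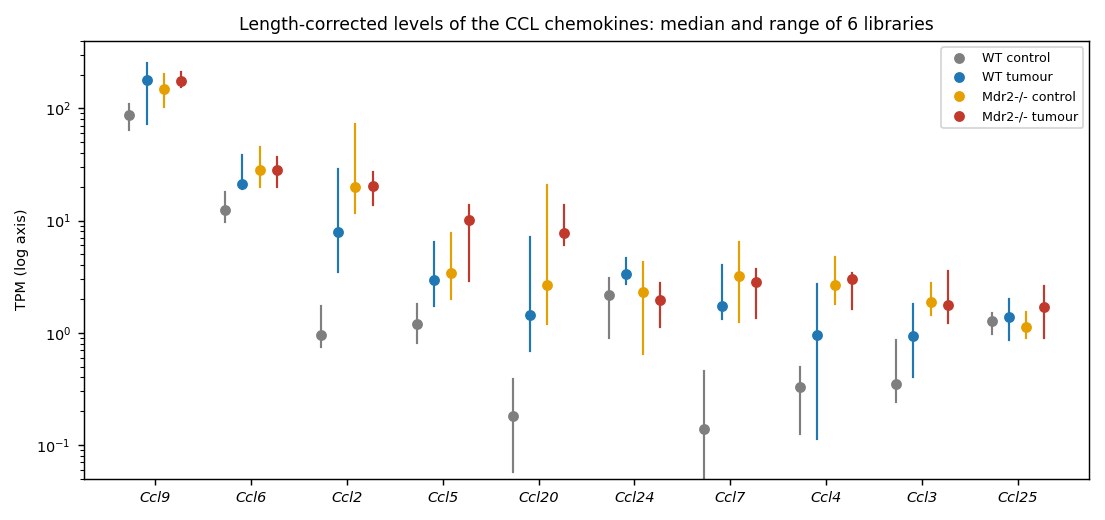
Authors' TPM (log axis) of the 10 CCL chemokines, with a dot at the median and a line from the lowest to the highest of 6 libraries in each of the 4 groups. Ccl9 lies above all other members in each group, and the lowest wild-type control value of Ccl7, which is 0, runs off the axis.

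Ccl2 and Ccl7, the monocyte attractants, were low in wild-type controls and higher in all other groups. Ccl2 (ENSMUSG00000035385) had a lowest, median and highest library of 0.4997, 0.693 and 1.11 CPM in wild-type controls. Wild-type tumour livers had it at 1.99, 4.27 and 13.8 CPM, in Mdr2-/- controls at 5.10, 10.3 and 37.3 CPM, and in Mdr2-/- tumour livers at 6.16, 10.4 and 11.8 CPM. All 18 libraries of these groups lay above every wild-type control, and the ranges of both Mdr2-/- groups overlapped. By edgeR's quasi-likelihood test Ccl2 rose in wild-type tumour livers by 2.96 ± 0.50 (log2 fold change ± SE, 7.80-fold, adjusted p = 8.74e-05). Between Mdr2-/- and wild-type controls it was higher by 4.13 ± 0.50 (17.51-fold, edgeR adjusted p = 6.18e-07). Mdr2-/- tumour and Mdr2-/- control livers differed by -0.54 ± 0.41 (edgeR adjusted p = 0.309). Over the 12 fits without single libraries of these groups that effect ranged from -0.71 to 0.06 (edgeR adjusted p = 0.188 or more). The difference of tumour effects, Mdr2-/- minus wild type, was -3.50 ± 0.64 (edgeR adjusted p = 0.000654). Among tumour livers the genotype difference was 0.63 ± 0.42 (edgeR adjusted p = 0.383).

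Ccl7 (ENSMUSG00000035373), which lies beside Ccl2, was also lowest in wild-type controls, at lower levels. Wild-type controls had 0, 0.0653 and 0.244 CPM (lowest, median and highest), resting on 0 to 4 reads each. Wild-type tumour livers had 0.563, 0.672 and 1.36 CPM, Mdr2-/- controls 0.387, 1.15 and 2.34 CPM, and Mdr2-/- tumour livers 0.388, 1.03 and 1.22 CPM. Again every library outside the wild-type controls lay above all 6 of them. The fitted differences were 3.21 ± 0.56 for the wild-type tumour effect (edgeR adjusted p = 0.000142), 3.79 ± 0.55 for genotype in controls (edgeR adjusted p = 5.99e-06) and -3.66 ± 0.69 for the difference of tumour effects (edgeR adjusted p = 0.000822). In Mdr2-/- mice the tumour effect was -0.45 ± 0.40 (edgeR adjusted p = 0.377). Few reads stand behind the wild-type controls, and over the alternatives the wild-type tumour effect on Ccl7 ranged from 1.39 on log2(TPM + 1) to 4.10 with the title range, described next, as a covariate.

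Within the ranges of the title number, the Mdr2-/- tumour effect on Ccl2 was -0.73 below 2000 (3 tumour livers against 4 controls) and 0.74 at 2000 or above (3 against 2), so its direction differed between them. The genotype difference in controls was 4.10 below 2000 (4 against 5 libraries) and 3.31 at 2000 or above (2 against 1). Only 1 wild-type control had a number in the range of the wild-type tumour livers, and against it their Ccl2 was higher by 3.12 on the log2 CPM scale. With the range as a covariate, the wild-type tumour effect on Ccl2 was 3.58 (edgeR adjusted p = 0.000255) and that on Ccl7 was 4.10 (adjusted p = 5.22e-05). The Mdr2-/- tumour effect also differed in direction between the ranges for Ccl3 (0.34 below 2000 and -0.43 at 2000 or above), Ccl4 (-0.17 and 0.09), Ccl6 (-0.51 and 0.44), Ccl7 (-0.44 and 0.44) and Ccl24 (-0.77 and 0.89), none of which was called over all libraries. For Ccl25 it was 0.12 and 1.03. The genotype difference in controls turned for Ccl9 alone, from 0.53 to -0.38.

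Ccl20 (ENSMUSG00000026166), the Ccr6 ligand, was higher in the other 3 groups than in wild-type controls. Its lowest, median and highest library were 0.0436, 0.152 and 0.366 CPM in wild-type controls, on 1 to 6 reads each, and 0.572, 1.04 and 4.28 CPM in wild-type tumour livers. Mdr2-/- controls had 0.751, 1.76 and 13.2 CPM, and Mdr2-/- tumour livers 3.79, 4.53 and 7.18 CPM. As with Ccl2 and Ccl7, the 18 libraries of the other groups lay above every wild-type control, and the Mdr2-/- controls were the most scattered group. Ccl20 rose by 3.42 ± 0.78 in wild-type tumour livers (10.7-fold, edgeR adjusted p = 0.00184) and was higher by 4.32 ± 0.77 in Mdr2-/- than in wild-type controls (20.01-fold, edgeR adjusted p = 7.09e-05). The difference of tumour effects was -2.92 ± 0.97 (edgeR adjusted p = 0.0293).

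For Ccl20 in Mdr2-/- mice, Mdr2-/- control replicate 4 decided the call. With all libraries the tumour effect was 0.50 ± 0.56 (edgeR adjusted p = 0.497). In Mdr2-/- control replicate 4 Ccl20 was at 13.2 CPM, above all Mdr2-/- tumour livers, whereas the other 5 controls were at 0.751 to 3.51 CPM, below all of them. Without that replicate the tumour effect was 1.56 (edgeR adjusted p = 0.0161) and the difference of tumour effects was no longer called. That difference was also lost on leaving out wild-type tumour replicate 3 or wild-type control replicate 3 or 6, with log2 values from -2.78 to -1.85 over the 4 fits (edgeR adjusted p = 0.0518 to 0.077). It was lost too without a filter on low counts, on both TPM scales and without both libraries that stood apart, and over the alternatives it ranged from -3.45 to -0.38. In the same Mdr2-/- control replicate 4, Ccl2 was at 37.3 CPM and Ccl7 at 2.34 CPM, the highest of its group for both, and the bile duct marker sum was 319 CPM against 58.4 to 167 CPM in the other 5 (without Spp1, which gave most of it, 67.9 against 18.5 to 49.7 CPM). Within the title ranges the Mdr2-/- tumour effect on Ccl20 was 0.44 below 2000, where replicate 4 falls, and 2.61 at 2000 or above.

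**Figure D2:**
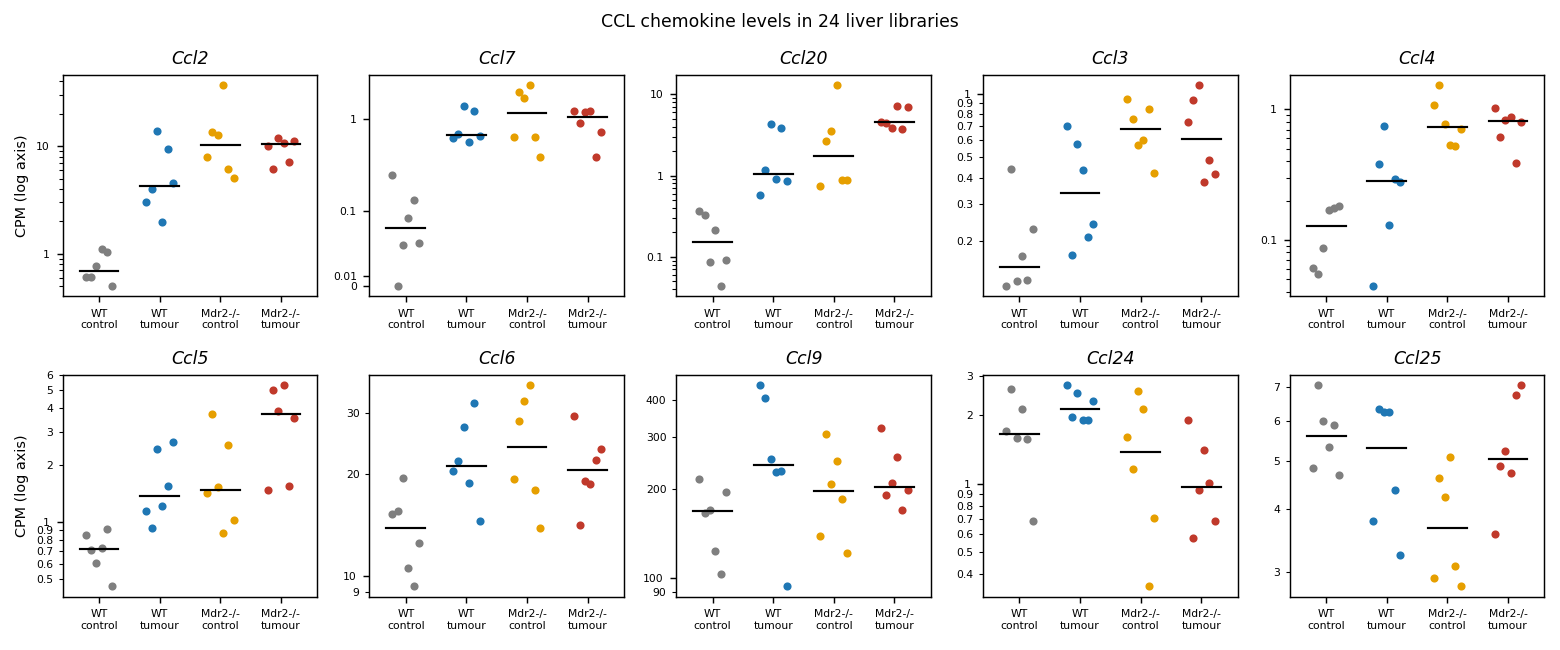
Level of each CCL chemokine (CPM on a log axis, linear near 0 for Ccl7) in every library of the 4 groups, a dot for each library and a bar at the median of 6. For Ccl2, Ccl7 and Ccl20 all libraries of the other 3 groups sit above the wild-type controls, and Mdr2-/- control replicate 4 is the highest dot of its group for all 3.

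Ccl3, Ccl4 and Ccl5, attractants of macrophages and effector T cells, were higher in Mdr2-/- controls than in wild-type controls, and Ccl5 was also higher with tumour in both genotypes. Ccl3 (ENSMUSG00000000982) had 0.122, 0.151 and 0.438 CPM across wild-type controls and 0.172, 0.337 and 0.704 CPM across wild-type tumour livers. It had 0.422, 0.680 and 0.938 CPM in Mdr2-/- controls and 0.380, 0.611 and 1.10 CPM in Mdr2-/- tumour livers. All but the lowest Mdr2-/- control lay above every wild-type control. The genotype difference in controls was 1.76 ± 0.40 (edgeR adjusted p = 0.000952). The wild-type tumour effect on Ccl3, 0.93 ± 0.42, was not called (edgeR adjusted p = 0.1), and without wild-type control replicate 2, which was at 0.438 CPM against at most 0.227 CPM in the other 5, it was 1.27 (edgeR adjusted p = 0.0342). With the title range as a covariate it was 1.38 (adjusted p = 0.0451).

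Ccl4 (ENSMUSG00000018930) was at 0.0548, 0.128 and 0.182 CPM across wild-type controls and at 0.0440, 0.284 and 0.747 CPM across wild-type tumour livers, resting there on 1 to 22 reads. Mdr2-/- controls had 0.527, 0.735 and 1.55 CPM and Mdr2-/- tumour livers 0.388, 0.820 and 1.03 CPM. Every Mdr2-/- control lay above every wild-type control, whereas wild-type tumour livers spread from below to above them. The genotype difference in controls was 2.73 ± 0.47 (6.65-fold, edgeR adjusted p = 4.82e-05). Ccl4 was the only member called between tumour livers of the 2 genotypes, at 1.23 ± 0.40 (edgeR adjusted p = 0.0449). That call was lost in 10 of 12 fits without a library of these groups, all but those without Mdr2-/- replicate 5 or wild-type replicate 3, with log2 values of 1.02 to 1.28 (edgeR adjusted p = 0.0544 to 0.114), and with the title range as a covariate (1.07, adjusted p = 0.119). Its wild-type tumour effect of 1.32 ± 0.50 narrowly missed the threshold (edgeR adjusted p = 0.0514), and without wild-type tumour replicate 1 or 4 it was 1.47 to 1.53 (adjusted p = 0.0155 to 0.0324). The difference of tumour effects on Ccl4 was -1.504 ± 0.62 (edgeR adjusted p = 0.0752), and -1.73 without wild-type tumour replicate 1 (adjusted p = 0.0276).

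Ccl5 (ENSMUSG00000035042), a product of activated T and NK cells, was at 0.454, 0.718 and 0.916 CPM in wild-type controls. It was at 0.928, 1.38 and 2.66 CPM in wild-type tumour livers, 0.868, 1.48 and 3.72 CPM in Mdr2-/- controls and 1.47, 3.71 and 5.31 CPM in Mdr2-/- tumour livers. All wild-type tumour livers lay above all wild-type controls, and 3 of 6 Mdr2-/- tumour livers lay above all Mdr2-/- controls. Ccl5 rose by 1.23 ± 0.39 in wild-type (edgeR adjusted p = 0.0205) and by 0.90 ± 0.35 in Mdr2-/- tumour livers (edgeR adjusted p = 0.0487), and was higher by 1.38 ± 0.39 in Mdr2-/- than in wild-type controls (edgeR adjusted p = 0.00505). The tumour effects differed between the genotypes by -0.32 ± 0.52 (edgeR adjusted p = 0.671).

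Both tumour calls of Ccl5 sat close to the threshold. In wild type the call was lost without tumour replicate 3 or 6 (1.04 and 1.08, edgeR adjusted p = 0.0523 to 0.0606) and with the title range as a covariate (1.34, adjusted p = 0.0572). In Mdr2-/- mice it was lost in 8 of 12 fits, those without tumour replicate 2, 3, 4 or 6 or control replicate 1, 3, 4 or 6 (0.74 to 0.90, edgeR adjusted p = 0.0727 to 0.118) and with that covariate (0.93, adjusted p = 0.0518). Within the title ranges the Mdr2-/- effect was 0.88 below 2000 and 0.90 at 2000 or above. T and NK cell markers (8 genes, summed) spanned 6.54 to 11.1 CPM among wild-type controls, 6.05 to 10.8 CPM among wild-type tumour livers, 8.48 to 22.7 CPM among Mdr2-/- controls and 10.8 to 26.2 CPM among Mdr2-/- tumour livers. No marker was at 0 throughout a group, and of the 8, 2 rose with tumour in Mdr2-/- mice, beside 17.9% of all genes, and 4 were higher in Mdr2-/- than in wild-type controls, beside 26.2% (edgeR). In wild-type tumour livers, where Ccl5 rose, none of the 8 was called, beside 16.9% of all genes called higher. Their median there was -0.02, with 0.03 over all genes. Between tumour livers of the 2 genotypes 5 of the 8 were called higher in Mdr2-/- mice, beside 7.13% of all genes. In Mdr2-/- tumour livers replicates 1 and 5 were lowest both in this sum (10.8 and 15.6 CPM) and in Ccl5 (1.47 and 1.55 CPM). The part of these cells in the Ccl5 differences was not tested.

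Between tumour livers of the 2 genotypes Ccl5 and Ccl20 were higher in 4 of 6 Mdr2-/- libraries than in all wild-type libraries, without passing the threshold. For Ccl5 the difference was 1.06 ± 0.36 (edgeR adjusted p = 0.054), and it was 1.203 to 1.245 without Mdr2-/- tumour replicate 1 or 5 or wild-type tumour replicate 3 or 6 (adjusted p = 0.0213 to 0.0306). For Ccl20 it was 1.40 ± 0.58 (edgeR adjusted p = 0.122), and without wild-type tumour replicate 3 it was 1.81 (adjusted p = 0.044).

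Ccl6 and Ccl9, the 2 abundant Ccr1 ligands, moved little by comparison. Ccl6 (ENSMUSG00000018927) was at 9.33, 13.9 and 19.4 CPM across wild-type controls, 14.5, 21.03 and 32.2 CPM across wild-type tumour livers, 13.8, 23.9 and 36.4 CPM in Mdr2-/- controls and 14.1, 20.5 and 29.4 CPM in Mdr2-/- tumour livers. The ranges of all 4 groups overlapped. Ccl6 rose by 0.71 ± 0.23 in wild-type tumour livers (edgeR adjusted p = 0.0247) and was higher by 0.85 ± 0.23 in Mdr2-/- than in wild-type controls (edgeR adjusted p = 0.0044). The tumour effect in Mdr2-/- mice was -0.23 ± 0.23 (edgeR adjusted p = 0.446), and the difference of effects was -0.94 ± 0.33 (edgeR adjusted p = 0.0382).

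Several of these calls for Ccl6 were lost on leaving out a library. The difference of effects on Ccl6 was lost in 11 of 24 fits (edgeR adjusted p = 0.0504 to 0.0676), those without tumour replicate 2, 3, 4 or 6 or control replicate 2, 3 or 4 of Mdr2-/- mice, or without tumour replicate 3 or 5 or control replicate 4 or 6 of wild type. Its log2 value stayed between -0.94 and -0.80 in them. The wild-type tumour effect on Ccl6 was lost without tumour replicate 3 or 5 or control replicate 4 or 5 (0.58 to 0.65, edgeR adjusted p = 0.0537 to 0.0726).

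Ccl9 (ENSMUSG00000019122) was at 103, 169 and 216 CPM across wild-type controls and at 93.9, 242 and 450.3 CPM across wild-type tumour livers, where 5 libraries lay above all controls and replicate 6 lay below all of them. It was at 122, 197 and 308 CPM in Mdr2-/- controls and at 170.3, 204 and 323 CPM in Mdr2-/- tumour livers, with overlapping ranges. Ccl9 rose in wild-type tumour livers by 0.77 ± 0.28 (1.71-fold, edgeR adjusted p = 0.0406). The call was lost in 7 of 12 fits, those without tumour replicate 1, 2 or 3 or control replicate 2, 3, 4 or 5 (0.59 to 0.80, edgeR adjusted p = 0.0554 to 0.112), and with the title range as a covariate (0.92, adjusted p = 0.061). The tumour effect in Mdr2-/- mice was 0.16 ± 0.28 (edgeR adjusted p = 0.685) and the genotype difference in controls 0.31 ± 0.28 (edgeR adjusted p = 0.359). The latter reached 0.74 and was called under 4 alternatives, which were total library size, both TPM scales and the nuclear RNA covariate described next.

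Levels of Ccl9 and Ccl6 ran with the share of nuclear RNA in a library. Over the 24 libraries, deviations from the group means of log2 level and of the share of counts in 7 nuclear non-coding RNAs had a Pearson r of 0.841 for Ccl9 and 0.747 for Ccl6, against -0.267 to 0.386 for the other 8 members. The points share library and depth, and the r is a description. That share spanned 2.91 to 5.42% among wild-type controls, 2.30 to 6.51% among wild-type tumour livers, 1.74 to 4.29% among Mdr2-/- controls and 4.60 to 7.95% among Mdr2-/- tumour livers. With it as a covariate the Mdr2-/- tumour effect on Ccl9 turned to -0.89 (edgeR adjusted p = 0.015) and that on Ccl6 went to -0.96 (adjusted p = 0.00759), whereas the wild-type tumour effect on Ccl9 was 0.25 (adjusted p = 0.27). The share did not overlap between Mdr2-/- controls and Mdr2-/- tumour livers, so that fit can hardly separate it from the Mdr2-/- tumour effect. For that effect 960 of all genes were called with the covariate and 5995 without it. What part the nuclear share has in these levels was not tested beyond that fit.

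Ccl24 (ENSMUSG00000004814), the eosinophil attractant, was at 0.681, 1.65 and 2.63 CPM across wild-type controls, 1.90, 2.14 and 2.73 CPM across wild-type tumour livers, 0.351, 1.38 and 2.57 CPM in Mdr2-/- controls and 0.578, 0.969 and 1.92 CPM in Mdr2-/- tumour livers. None of its 5 comparisons was called by edgeR, and 1 had an unadjusted p under 0.05. That was genotype among tumour livers, which DESeq2 called and where 5 of 6 Mdr2-/- libraries lay below all wild-type libraries (-1.03 ± 0.36, edgeR adjusted p = 0.0614). Without Mdr2-/- tumour replicate 1 the difference was -1.27 (edgeR adjusted p = 0.0225), and it was called under 5 of the 12 alternatives other than the fits without single libraries. With the title range as a covariate, the wild-type tumour effect on Ccl24 was 1.26 (edgeR adjusted p = 0.0306) and the difference of tumour effects -1.31 (adjusted p = 0.0423), both called. Against the 1 wild-type control in their range, wild-type tumour livers had it higher by 1.59 on the log2 CPM scale. Of the eosinophil and mast cell markers (5 genes, 4 in the table), none passed the filter, and their summed level was at most 0.305 CPM in any library.

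Ccl25 (ENSMUSG00000023235) was at 4.68, 5.60 and 7.07 CPM in wild-type controls and at 2.81, 3.67 and 5.08 CPM in Mdr2-/- controls, of which 5 of 6 lay below all wild-type controls. Tumour livers had 3.24, 5.31 and 6.33 CPM in wild type and 3.57, 5.05 and 7.06 CPM in Mdr2-/- mice. Ccl25 was the only member called lower in Mdr2-/- than in wild-type controls (-0.57 ± 0.20, edgeR adjusted p = 0.022). The call was lost without Mdr2-/- control replicate 1, 5 or 6 or wild-type control replicate 2 (-0.51 to -0.48, edgeR adjusted p = 0.0516 to 0.0656), and it was absent on total library size, without a filter and on the authors' TPM. In Mdr2-/- tumour livers it was higher by 0.50 ± 0.20 with an edgeR adjusted p of 0.0533. Without tumour replicate 1 or control replicate 2 or 4 the difference was 0.55 to 0.60 (edgeR adjusted p = 0.0284 to 0.0458).

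Counted over the members, 6 of 10 rose in wild-type tumour livers (Ccl2, Ccl5, Ccl6, Ccl7, Ccl9 and Ccl20), where edgeR called 16.9% of all genes higher. In 4 of them, Ccl2, Ccl5, Ccl7 and Ccl20, the libraries of the groups did not overlap, which held for 7.27% of all genes. In Mdr2-/- tumour livers 1 of 10 rose (Ccl5), against 17.9% of all genes. The median difference of the 10 was 1.08 in wild type and -0.11 in Mdr2-/- mice, with 0.03 and 0.04 over all genes tested. For the difference of the tumour effects, 4 of 10 (Ccl2, Ccl6, Ccl7 and Ccl20) were called lower in Mdr2-/- mice, against 13.4% of all genes (11.9% were called higher, and no member), with a median of -0.95 beside -0.04 over all genes.

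Between the controls 7 of 10 were called higher in Mdr2-/- mice (Ccl2, Ccl3, Ccl4, Ccl5, Ccl6, Ccl7 and Ccl20), where 26.2% of all genes were called higher. The libraries did not overlap for Ccl2, Ccl4, Ccl7 and Ccl20, as for 13.7% of all genes, and 1 of 10 was called lower (Ccl25), against 24.3% of all genes. The median was 1.57, with 0.03 over all genes. Between tumour livers of the 2 genotypes 1 of 10 was called higher (Ccl4), against 7.13% of all genes, with a median of 0.38 beside -0.02. These comparisons share groups, so their counts are not independent of each other. Without the 2 libraries that stood apart, the same 6 members were called in wild-type tumour livers and the same 8 between controls, while the difference of tumour effects was called for 3 (Ccl20 was lost). Leaving out single libraries gave 3 to 7 calls in wild-type tumour livers, the fewest without wild-type tumour replicate 3, and 0 to 2 in Mdr2-/- tumour livers. It gave 7 to 8 between controls and 0 to 3 between tumour livers. For the difference of tumour effects it gave 2 to 5, with 2 (Ccl2 and Ccl7) without Mdr2-/- control replicate 4, wild-type tumour replicate 3 or wild-type control replicate 6.

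**Figure D3:**
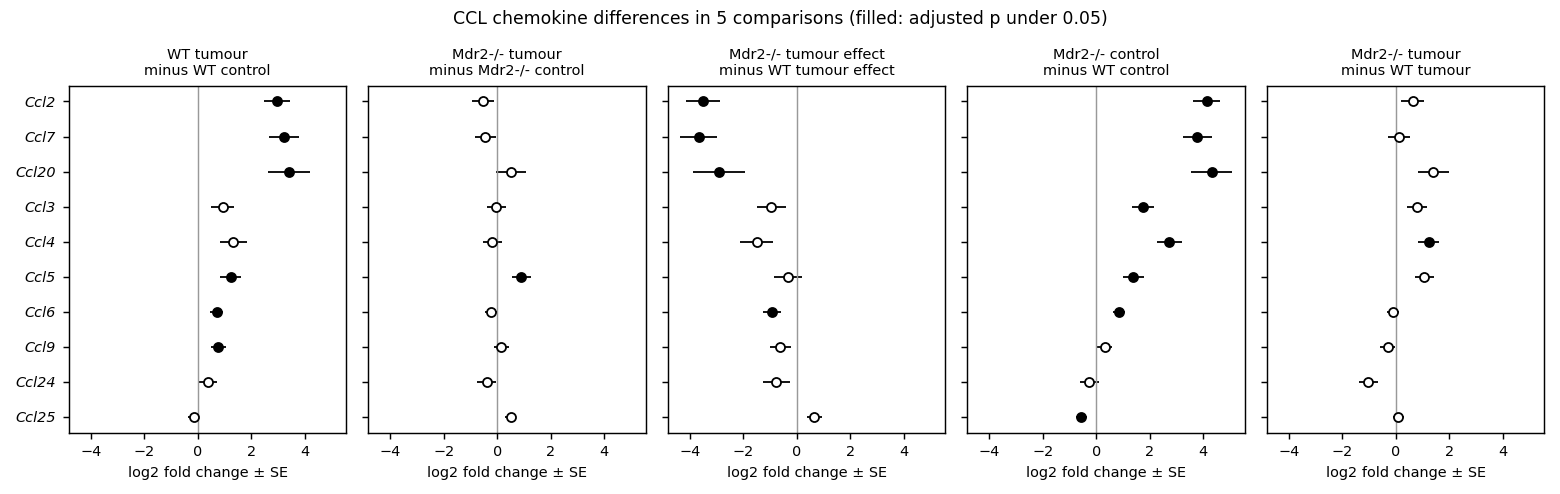
Log2 fold change (dot) with its SE (line) of each CCL chemokine in the 5 comparisons, from edgeR, filled where the adjusted p was under 0.05. Ccl2, Ccl7 and Ccl20 lie at 2.96 to 4.32 in the wild-type tumour and control genotype comparisons and at -3.66 to -2.92 for the difference of tumour effects.

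Monocyte and recruited macrophage markers, like the monocyte attractants, were higher in the other 3 groups than in wild-type controls. Their 7 genes spanned sums of 9.10 to 10.9 CPM among wild-type controls, 16.5 to 50.6 CPM among wild-type tumour livers, 39.7 to 81.3 CPM among Mdr2-/- controls and 45.1 to 80.1 CPM among Mdr2-/- tumour livers, and none was at 0 throughout a group. Of the 7, 5 rose in wild-type tumour livers (16.9% of all genes) and 6 were higher in Mdr2-/- than in wild-type controls (26.2%), by edgeR. For 6 the difference of tumour effects was called negative (13.4%). With tumour in Mdr2-/- mice none was called, nor were Ccl2 and Ccl7. Between tumour livers of the 2 genotypes 3 were called higher in Mdr2-/- mice (7.13%), whereas Ccl2 and Ccl7 were not called. Among Mdr2-/- controls, replicate 6 had the lowest Ccl2 and Ccl7 with a marker sum of 67.4 CPM, above that of replicate 3 (39.7 CPM). Cholangiocyte markers (7 genes, bile duct cells) spanned sums of 51.5 to 132 CPM among wild-type controls, 159 to 1370.3 CPM among wild-type tumour livers, 58.4 to 319 CPM among Mdr2-/- controls and 1099.8 to 3983 CPM among Mdr2-/- tumour livers. Of these 7, 6 rose with tumour in each genotype, beside 16.9% of all genes in wild type and 17.9% in Mdr2-/- mice. In Mdr2-/- mice 6 were also called higher between controls (26.2% of all genes) and 6 between tumour livers (7.13%). The difference of tumour effects was called for none of the 7. Spp1 (osteopontin) gave 68.4 to 96.6% of these sums. The other 6 genes summed to 7.54 to 13.1, 11.3 to 62.5, 18.5 to 67.9 and 49.3 to 157.1 CPM in the same order of groups. Kupffer cell markers (6 genes), of the resident liver macrophage, summed to 236 to 318, 294 to 431, 228 to 388 and 167 to 476 CPM in the same order of groups. By edgeR 2 of the 6 rose with tumour in wild type (16.9% of all genes) and none fell. With tumour in Mdr2-/- mice 3 fell (17.0%) and none rose. For 3 the difference of tumour effects was called negative (13.4%). Between controls 2 were higher in Mdr2-/- mice (26.2%) and 1 was lower (24.3%). The part of any of these cells in the chemokine differences was not tested.

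In wild-type tumour livers 2 libraries were high in several members at once. There, replicates 3 and 5 had the highest Ccl2 (13.8 and 9.42 CPM), Ccl7 (1.36 and 1.21 CPM) and Ccl20 (4.28 and 3.84 CPM). The same replicates had the highest sums of monocyte markers (50.6 and 31.4 CPM) and of cholangiocyte markers (1370.3 and 1322 CPM), the other 4 libraries being at 16.5 to 20.98 and 159 to 647 CPM. Without Spp1 the cholangiocyte sums of replicates 3 and 5 were 62.5 and 44.8 CPM, and that of replicate 6 was 50.9 CPM. In Mdr2-/- controls replicates 4, 2 and 3 likewise had the highest Ccl2 (37.3, 13.5 and 12.8 CPM) and Ccl7 (2.34, 1.95 and 1.67 CPM). They also had the highest Ccl20 (13.2, 2.64 and 3.51 CPM). Replicate 4 had the highest monocyte marker sum of that group (81.3 CPM), but replicate 3 had the lowest (39.7 CPM). Cholangiocyte sums of replicates 4, 2 and 3 were 319, 100.3 and 167 CPM, with 137 CPM in replicate 1. In Mdr2-/- tumour livers and wild-type controls such a run was not seen. Mdr2-/- tumour replicate 3 had the highest Ccl2 of its group (11.8 CPM) with Ccl20 at 3.81 CPM, near the lowest, and wild-type control replicate 5 had the lowest Ccl20 (0.0436 CPM) with the second highest Ccl2 (1.05 CPM). Without wild-type tumour replicate 3, 3 of 10 members (Ccl2, Ccl7 and Ccl20) were called in wild-type tumour livers. Over the 24 libraries, Pearson r of deviations from the group means ranged from -0.247 to 0.776 over the 45 pairs of members (median 0.189). It was 0.776 between Ccl2 and Ccl20, 0.713 between Ccl2 and Ccl7 and 0.688 between Ccl6 and Ccl20, as a description of libraries that share depth and composition.

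**Figure D4:**
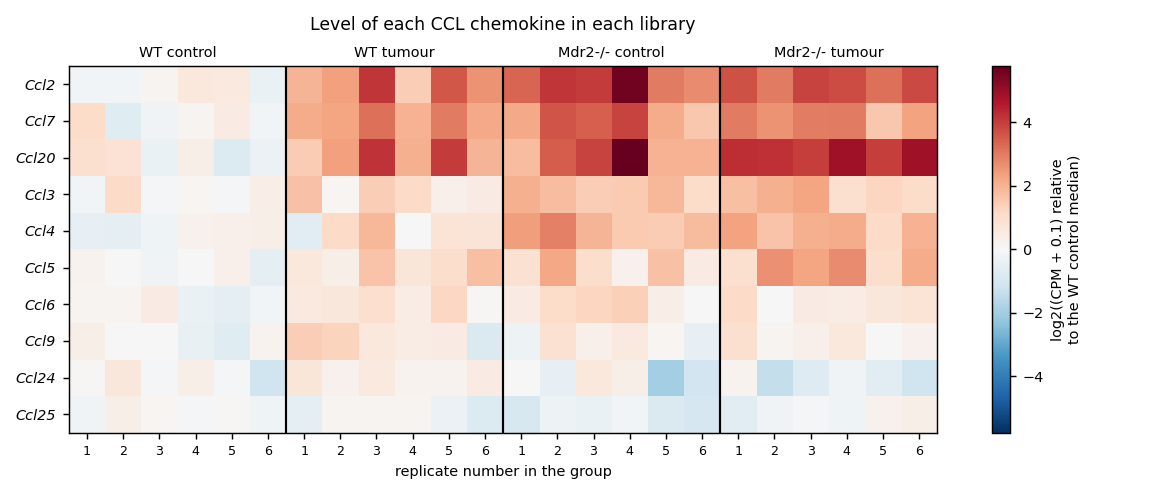
Level of each CCL chemokine (rows) in each of the 24 libraries (columns, by group and replicate), as log2 of CPM + 0.1 relative to the median of the wild-type controls (color scale). The rows of Ccl2, Ccl7 and Ccl20 are red in nearly all libraries outside the wild-type controls, darkest in Mdr2-/- control replicate 4, while Ccl25 stays between -0.97 and 0.33.

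Genes with the most similar pattern over libraries were sought for each member, by Pearson r of deviations of log2 CPM from group means over 24 libraries, among 12729 genes or, for members with a mean under 1 CPM, 12730. For Ccl2 these were Ltb (0.86), Ifngr1 (0.84) and Sparc (0.84), and for Ccl20 B9d1 (0.87), Thbd (0.86) and Serpinb6b (0.86). For Ccl7 they were Tnfrsf12a (0.80), Arpc5 (0.76) and Sumo2 (0.76). Ccl5 had Cd8b1 (0.80) and Cd8a (0.79), which encode the CD8 coreceptor of cytotoxic T cells, and Utp11 (0.78). Ccl6 had AI662270 (0.90), Clec4n (0.89) and Cd86 (0.88), the last 2 being myeloid surface proteins. Ccl9 had Ndufaf5, Ndufs4 and Fam136a (each 0.96), of which the first 2 belong to assembly and structure of respiratory complex I. Ccl24 had Fpr1 (0.83), Vsig4 (0.82), a Kupffer cell receptor, and Rdh13 (0.78). The highest values for Ccl3 (Aunip and Ms4a1, 0.68 to 0.73), Ccl4 (Pwwp2b, Tm6sf1 and Irf7, 0.68 to 0.72) and Ccl25 (Zfp872, Amn1 and Ttll3, 0.71 to 0.72) were lower. Each gene named here was picked for the highest r among all genes compared, which by itself raises r. The values describe these libraries and were not tested. Deviations of Ccl9 also ran with the nuclear RNA share (r of 0.841).

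Of 11 other CCL ligands, 6 passed the filter (Ccl8, Ccl12, Ccl17, Ccl22, Ccl27a and Ccl28), and 4 of these 6 rose in Mdr2-/- tumour livers, beside 17.9% of all genes. They were Ccl12, a monocyte attractant beside Ccl2, Ccl17, a ligand of Ccr4 on regulatory and helper T cells, Ccl27a, a skin chemokine, and Ccl8, with a median difference of 1.36 over the 6 beside 0.04 over all genes. Ccl17 had a lowest, median and highest library of 0.246, 0.556 and 0.976 CPM in Mdr2-/- controls and of 1.30, 1.75 and 3.603 CPM in Mdr2-/- tumour livers, without overlap (1.70 ± 0.48, edgeR adjusted p = 0.0101). Ccl12 went from 0.105, 0.530 and 1.40 CPM to 1.16, 2.24 and 3.22 CPM (2.00 ± 0.60, edgeR adjusted p = 0.0143), and Ccl27a from 3.09, 4.47 and 6.35 CPM to 6.72, 8.25 and 14.3 CPM (1.01 ± 0.30, edgeR adjusted p = 0.012).

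In wild-type tumour livers 3 of the 6 rose (16.9% of all genes did), with a median of 2.16, and Ccl17 had the largest fold of the 6 in the edgeR model (4.78 ± 0.74, adjusted p = 3.72e-05), from at most 0.110 CPM in wild-type controls. Its tumour effect was lower in Mdr2-/- mice (-3.08 ± 0.94, edgeR adjusted p = 0.0195), 1 of 6 so called beside 13.4% of all genes. Between controls 3 were higher in Mdr2-/- mice (26.2% of all genes), with Ccl22, the other Ccr4 ligand, at 2.46 ± 0.49 (edgeR adjusted p = 0.000222), and Ccl27a was lower (-1.42 ± 0.30, edgeR adjusted p = 0.000416; 24.3% of all genes were lower).

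Ccr2 and Ccr1, receptors of monocytes, rose with tumour in wild type as Ccl2 and Ccl7 did. Of 14 CC receptors and decoys 11 passed the filter. In wild-type tumour livers 5 rose, beside 16.9% of all genes, with a median over the 11 of 0.37 beside 0.03 over all genes. Ccr2, the receptor of Ccl2 and Ccl7, was at 1.79, 2.86 and 4.50 CPM across wild-type controls, 6.66, 9.65 and 22.2 CPM across wild-type tumour livers, 13.8, 15.3 and 31.8 CPM in Mdr2-/- controls and 21.1, 26.8 and 33.0 CPM in Mdr2-/- tumour livers. Its wild-type tumour effect was 1.97 ± 0.28 (edgeR adjusted p = 1.22e-05) and the genotype difference in controls 2.60 ± 0.28 (edgeR adjusted p = 1.13e-07), both without overlap. Ccr2 was also higher in Mdr2-/- than in wild-type tumour livers (1.16 ± 0.26, edgeR adjusted p = 0.00505). Ccr1, the receptor of Ccl6 and Ccl9, rose from 0.273, 0.495 and 0.657 CPM to 1.35, 2.07 and 8.59 CPM in wild type (2.85 ± 0.47, edgeR adjusted p = 7.96e-05) and was higher by 3.23 ± 0.47 between controls (edgeR adjusted p = 7.02e-06).

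For 5 of the 11 receptors and decoys the difference of tumour effects, Mdr2-/- minus wild type, was called negative (13.4% of all genes). Among them were Ccr1 (-2.17 ± 0.61, edgeR adjusted p = 0.0127), Ccr2 (-1.44 ± 0.38, adjusted p = 0.00847), the atypical receptor Ackr1 (-1.19 ± 0.31, adjusted p = 0.00771) and Ccrl2 (-1.19 ± 0.34, adjusted p = 0.0152). Ackr1, a decoy that binds many chemokines on venules, was the 1 of 11 called lower with tumour in Mdr2-/- mice, where 17.0% of all genes were lower (-0.57 ± 0.22, edgeR adjusted p = 0.044) and was lower in Mdr2-/- than in wild-type tumour livers without overlap (-0.87 ± 0.22, adjusted p = 0.00996). Between controls 3 of the 11 were higher in Mdr2-/- mice and 1, Ackr4, was lower (-0.93 ± 0.21, edgeR adjusted p = 0.000903), beside 26.2% and 24.3% of all genes. Ccr6, the receptor of Ccl20, was at 0.818 CPM or less in every library, Ccr3, the receptor of Ccl24, at 5.87 to 18.2 CPM, and Ccr9, the receptor of Ccl25, at 0.311 to 2.51 CPM.

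**Figure D5:**
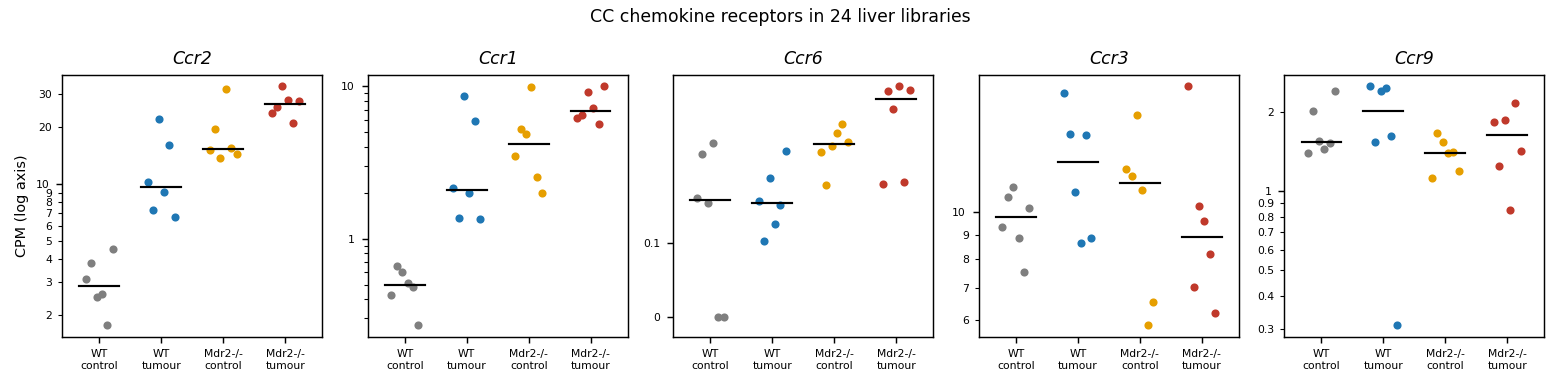
Level of 5 CC receptors (CPM on a log axis, linear near 0 for Ccr6) in every library of the 4 groups, a dot for each library and a bar at the median of 6. Ccr2 and Ccr1 of all wild-type tumour and Mdr2-/- control livers lie above the wild-type controls, while the ranges of Ccr3 and Ccr9 overlap across the groups.

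NF-kB subunits, inhibitors and inducers, 15 genes that all passed the filter, were mostly higher in Mdr2-/- controls. Between controls 12 were higher in Mdr2-/- mice and 1 was lower, with a median of 1.05 beside 0.03 over all genes, of which 26.2% were higher and 24.3% lower. The largest were Tnfaip3, a feedback inhibitor (2.89 ± 0.23, edgeR adjusted p = 5.92e-10), Relb, a subunit of the non-canonical arm (2.84 ± 0.25, adjusted p = 2.92e-09), Nfkbie (1.83 ± 0.23, adjusted p = 8.55e-07) and Nfkb2 (1.74 ± 0.17, adjusted p = 2.29e-08), and the kinase gene Chuk was the member lower (-0.95 ± 0.15, adjusted p = 1.58e-05). In wild-type tumour livers 7 rose and 2 fell (median 0.30), beside 16.9% and 11.5% of all genes, with Relb at 1.92 ± 0.25 and Tnfaip3 at 1.78 ± 0.22 (edgeR adjusted p = 3.16e-06 and 2.1e-06). In Mdr2-/- tumour livers 1 rose, the cytokine gene Tnf (0.99 ± 0.27, edgeR adjusted p = 0.00889), and 7 fell (median -0.46), beside 17.9% and 17.0% of all genes, among them Ikbke (-1.28 ± 0.19, adjusted p = 4.12e-05), Rela (-0.62 ± 0.19, adjusted p = 0.0163) and Ikbkb (-0.61 ± 0.11, adjusted p = 0.000224). The difference of tumour effects, Mdr2-/- minus wild type, was called negative for 8 of the 15 and positive for 1 (Chuk, which fell in wild type), beside 13.4% and 11.9% of all genes. Between tumour livers 5 were higher in Mdr2-/- mice, beside 7.13% of all genes, led by Tnf (1.51 ± 0.28, edgeR adjusted p = 0.00109).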

How the data were processed

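Per the labels' protocols, total RNA from mouse livers went through a ribosomal RNA depletion kit named for bacteria and was read from both ends. The authors deposited raw counts per gene and TPM values, which are corrected for length and scaled per library. The submitters' processing notes name mm39 and DESeq2 without a version. Aligner, counter and annotation: not given in the sources used here. Labels give no replicate numbers, so replicates were numbered in accession order and pair nothing. In none of the 60 replicate pairs did counts agree within sampling noise.

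The counts went into edgeR 4.0.16 under R 4.3.3 (groups given to filterByExpr, minimum count 10, TMM, glmQLFit robust, glmQLFTest, 2-sided) in 1 model of 24 libraries, tested on simulated data first. Calls are at a Benjamini-Hochberg adjusted p under 0.05 over 17216 genes, and SEs are the log2 fold change over the root of F. The biological coefficient of variation was 0.272. Alternatives were other scalings, filters, DESeq2 1.42.0, limma 3.58.1 on log2(TPM + 1) and log2(TPM + 0.1), subsets of libraries and 2 covariates. The 10 members and all lists were chosen with earlier results of these data known. Named besides them are up to 4 called members per list and comparison, with at least 1 CPM in the higher group, plus the largest the other way, and the 3 genes most similar to each member (mean of at least 1 CPM, no predicted or Rik genes), of which 1 is not reported here. Ccl8, Ccr3, Ccr6 and Ccr9 were named outside this rule, after their values were seen. Sequences were read, and motifs searched, in Python 3.11.15 with pandas 2.3.3.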

Additional observations from a re-analysis of the deposited data

Results flagged for a closer look

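Of 40 sets of 6 libraries (10 members in 4 groups), 3 held a library far from the other 5 on the CPM scale, by a rule that chance meets in about 1 of 20 sets. Ccl2 in Mdr2-/- control replicate 4 was at 37.27 CPM, where the other 5 were at 5.10 to 13.5 CPM. Ccl20 in the same library was at 13.16 CPM, where the others were at 0.751 to 3.51 CPM. Ccl3 in wild-type control replicate 2 was at 0.4382 CPM, where the others were at 0.122 to 0.227 CPM.

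The tumour effect differed between the genotypes for 4 members by the edgeR test of the difference, Mdr2-/- minus wild type. The log2 differences were -3.503 for Ccl2, -3.66 for Ccl7, -2.92 for Ccl20 and -0.9362 for Ccl6. In each case the Mdr2-/- effect was not called while the wild-type effect was. Wild-type controls, the group with the lowest levels of Ccl2, Ccl7 and Ccl20, enter all 4 differences.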

How the results depend on the processing

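Over all alternatives, 1164 values of single members kept their side of the threshold, with no called value changing sign, 76 lost a call, 52 gained one and 1 reversed: the Mdr2-/- tumour effect on Ccl9 was -0.8922 with the nuclear RNA share as covariate. That share did not overlap between Mdr2-/- controls and Mdr2-/- tumour livers. Calls of Ccl2 and Ccl7 in wild-type tumour livers, between controls and for the difference of tumour effects were kept in every fit that tested the gene, fits without single libraries included. With a minimum count of 50, 7 members were tested, 2 were called for the difference of tumour effects (4 in the edgeR model reported) and 5 between controls (8). In Mdr2-/- tumour livers, where 1 member was called, 0 were with DESeq2 size factors, without a filter, on log2(TPM + 0.1), with only the 12 libraries compared and with the title range as covariate (2 to 3 members at an unadjusted p under 0.05 in each of these edgeR and limma fits). There 2 were called with total library size, upper-quartile factors, the stricter filter, DESeq2, log2(TPM + 1), the nuclear RNA covariate (Ccl6 and Ccl9, both lower) and without the 2 libraries that stood apart. Between tumour livers of the 2 genotypes (1 called), counts were 0 without a filter (edgeR, 5 at an unadjusted p under 0.05), 2 with total library size, upper-quartile factors, the nuclear RNA covariate and without those 2 libraries, 3 with DESeq2, and 4 on either TPM scale; the cause was not tested. Leaving out each library in turn gave, by edgeR, 0 to 2 calls for the Mdr2-/- tumour effect, 3 to 7 in wild type, 2 to 5 for the difference, 7 to 8 between controls and 0 to 3 between tumour livers. Total library size moved the median log2 difference of all genes to 0.28 in Mdr2-/- and 0.33 in wild-type tumour livers, 0.33 between controls and 0.23 between tumour livers, and on that scale Ccl25 was no longer called between controls. No paired analysis was possible because the labels give no replicate numbers. Wild-type controls rest on 0 to 8 reads per library for Ccl3, Ccl4, Ccl7 and Ccl20, so the size of their folds is imprecise.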
